A study of Mus musculus with 8 samples.

Results

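The genes described here are the mouse Wnt ligands, their Frizzled receptors and 2 families of secreted inhibitors, the Sfrp and Dkk genes. They were chosen by symbol alone, which gave 37 genes (19 Wnt, 10 Fzd, 4 Sfrp and 4 Dkk) of the 22717 features in the deposited files. All of them are listed in both the day 5 files and the day 0 table. Of the 37, 30 reached a level of 1 in at least 1 library. The other 7 (Wnt2, Wnt2b, Wnt9b, Wnt10a, Wnt10b, Wnt16 and Dkk4) stayed at 0.46 or less in every library, and Wnt10a was not listed in shCtrl and WT at day 5 and was taken as 0 there.

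The cells are cultures of 46C, a mouse embryonic stem cell line labelled as strain C57BL/6 in which green fluorescent protein reports on Sox1, an early neural gene. There were 4 lines: LincNDIME_KO (here KO), in which a long intergenic noncoding RNA was knocked out; shMef2c, with a hairpin RNA against the transcription factor gene Mef2c; shCtrl, with a control hairpin; and wild type (WT). Each line gave 1 library at day 5, labelled neural progenitor cells, from dissociated stem cells aggregated in serum replacement medium, and 1 at day 0, as stem cells on irradiated mouse embryonic fibroblasts with serum and the cytokine LIF. The sources used here do not say how many clones stand behind each line. Messenger RNA was purified with oligo(dT) beads before sequencing.

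The 8 libraries held 20312032 to 26834802 estimated reads on genes. With 1 library per group there is no replicate error and no test. Each statement describes these libraries, and the difference between the control cultures shCtrl and WT is given as a yardstick. Mef2c, the hairpin's target, was at 17 reads in KO against 77 in WT and at 20 reads in shMef2c against 82 in shCtrl at day 5. At day 0 it stood at 44 reads (0.37 RPKM) in the library labelled shMef2c against 20 (0.16 RPKM) in shCtrl. This goes against that label, so the library is called by its label throughout. Feeder fibroblast markers were highest in that library too, at 376 RPKM in sum against 229 in shCtrl. Their part in the Mef2c reads at day 0 was not tested. The noncoding RNA itself is not analysed here. All 6 neural progenitor markers examined (Sox1, Pax6, Nes, Fabp7, Hes5 and Sox3) were detected in each day 5 library. Their summed level was 87.2 FPKM in KO against 307 FPKM in WT, and 35.0 FPKM in shMef2c against 371 FPKM in shCtrl. The label of neural progenitor cells thus holds for very unequal marker levels. In bulk RNA, fewer cells of a type and less RNA per cell cannot be told apart.

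Wnt proteins are lipid-modified secreted ligands. They bind a Frizzled receptor together with the co-receptors Lrp5 or Lrp6 to stabilise beta-catenin, and some act through Frizzled without beta-catenin on cell polarity and movement. Sfrp proteins resemble the ligand-binding part of Frizzled and bind Wnts outside the cell, while Dkk1 blocks Lrp6. In the mouse embryo Wnt signals promote the primitive streak and posterior fates, and secreted inhibitors protect the anterior neural plate from them.

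Day 5 levels are FPKM and day 0 levels are RPKM, both scaled to gene length and library depth. They come from tables made separately. A ratio is log2((level + 1)/(level + 1)), so that genes near or below 1 show smaller ratios than their levels do. Counts of higher and lower genes below are at 2-fold or more, among features with a mean level of 1 or more over the pair. Intervals on ratios of read shares are exact 95% intervals that cover counting error only.

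**Figure D1:**
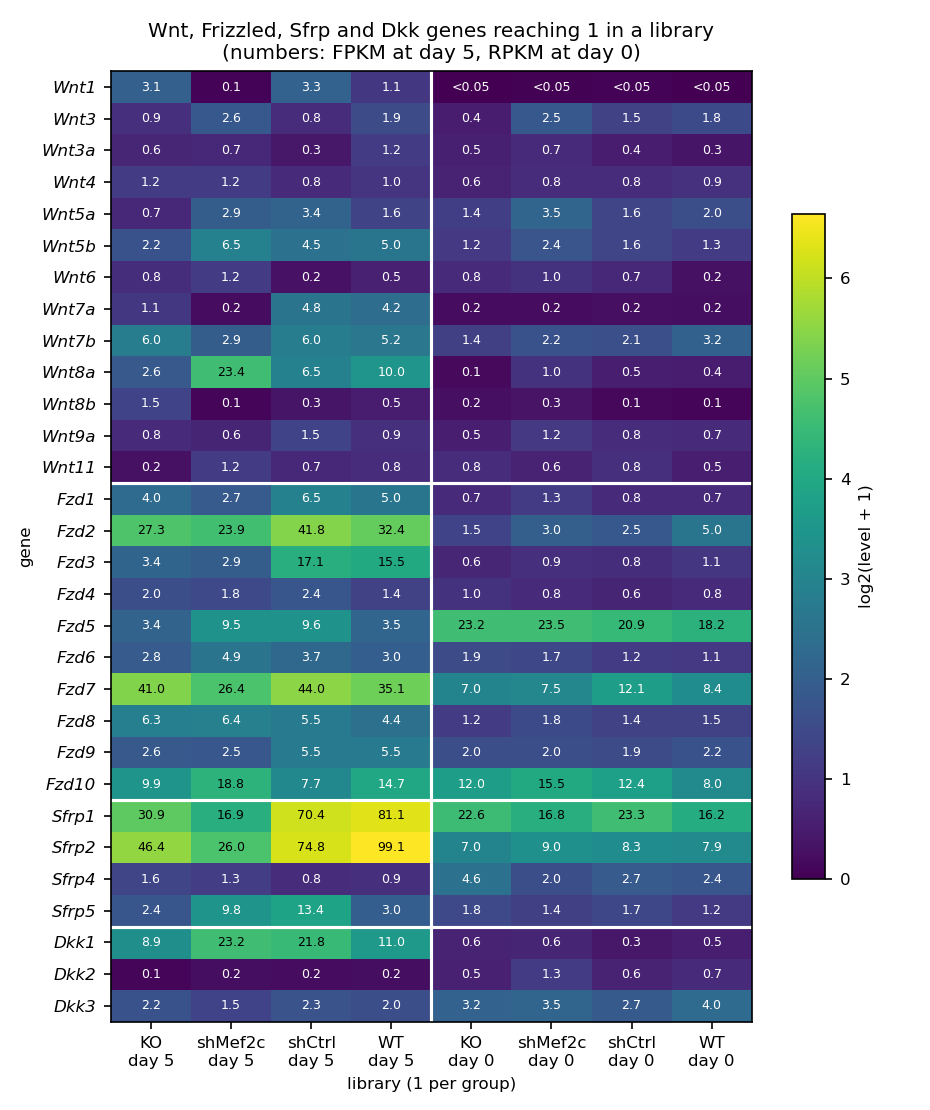
Levels of the 30 genes that reached 1 in a library, with FPKM at day 5 in the left 4 columns and RPKM at day 0 in the right 4, on a log2(level + 1) colour scale with the level printed in each cell. Sfrp1 and Sfrp2 hold the highest levels, 81.1 and 99.1 FPKM in WT at day 5, and Fzd5 is the one receptor that is lower at day 5 than at day 0 in all 4 lines.

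At day 5, 4 genes were lower by 2-fold or more both in KO against WT and in shMef2c against shCtrl, namely Sfrp1, Sfrp2, Fzd3 and Wnt7a. Wnt8a was lower in KO and higher in shMef2c. In KO, 24 of the 37 genes passed the minimum level, 0 were higher and 5 were lower (20.8% of those that passed), beside 7.31% of all 12832 features in either direction and 3.26% lower, with 4.05% higher. The median log2 ratio of the 24 was -0.25, beside 0.0011 over all features. In shMef2c, 25 passed, 2 were higher and 6 were lower (32% of those that passed), beside 9.26% of all 13041 features in either direction, 4.49% higher and 4.78% lower. Their median was -0.36, beside -0.048 over all features. Between the controls, shCtrl against WT, 23 passed, 3 were higher and 0 lower (13.0% of those that passed). This stands beside 0.996% of all 12845 features in either direction, 0.724% higher and 0.272% lower. The 4 genes lower in both lines are 80% of the list from KO and 66.7% of the list from shMef2c, and these comparisons share no library. Over all features, 176 were lower in both, 42.1% of those lower in KO and 28.3% of those lower in shMef2c. The neural progenitor markers were lower as well, 3 of 6 by 2-fold or more in KO and 6 of 6 in shMef2c, and naive stem cell markers were higher, 5 of 7 in KO and 7 of 7 in shMef2c. Their part in the values of these 4 genes was not tested.

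**Figure D2:**
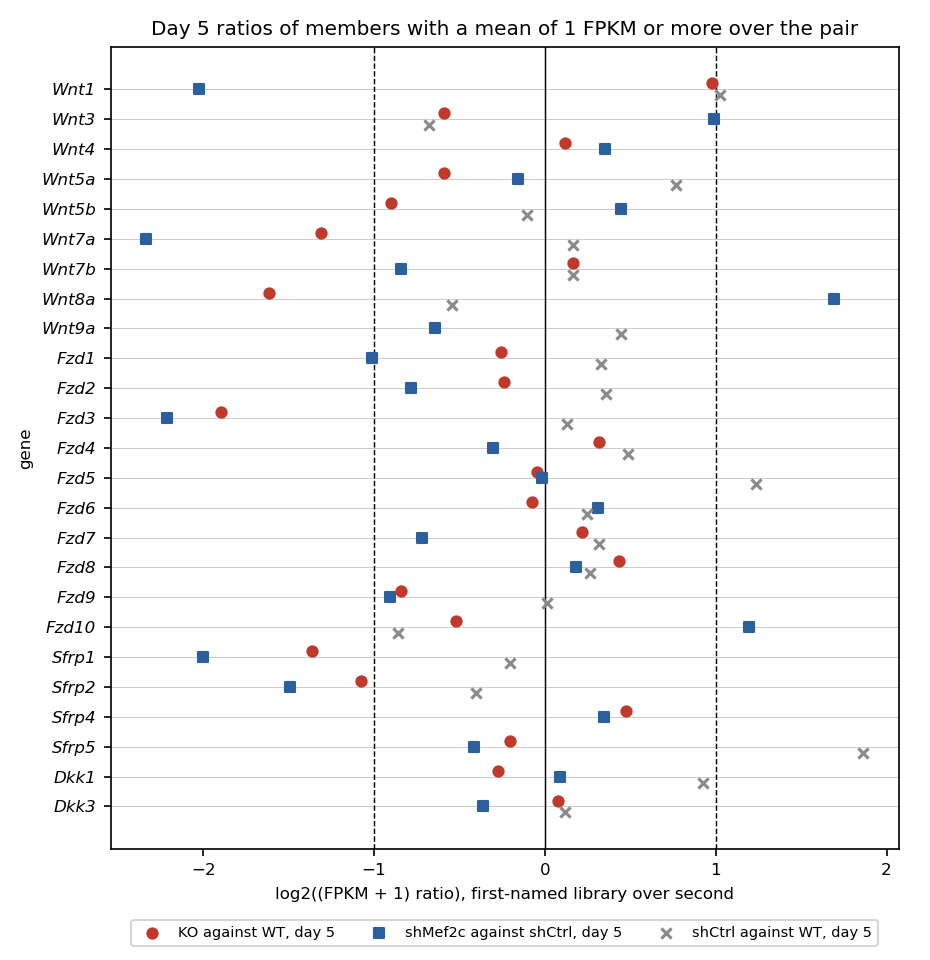
Log2 ratios at day 5 for members with a mean of 1 FPKM or more over the pair, with KO against WT as circles, shMef2c against shCtrl as squares and shCtrl against WT as crosses; dashed lines mark 2-fold. Fzd3, Wnt7a, Sfrp1 and Sfrp2 lie left of the lower line in both perturbed lines, Wnt8a lies at -1.61 and 1.69, and Sfrp5 has the highest value between the controls, 1.86.

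The secreted inhibitors Sfrp1 and Sfrp2 were the most abundant members in the control cultures at day 5 and were lower in both perturbed lines. Sfrp1 and Sfrp2 act redundantly in trunk elongation of the mouse embryo. Sfrp1 stood at 30.9 FPKM in KO against 81.1 in WT, and at 16.9 FPKM in shMef2c against 70.4 in shCtrl. The ratio of its read shares was 0.380 for KO over WT (interval 0.366 to 0.395) and 0.239 for shMef2c over shCtrl (0.228 to 0.252). Both perturbed libraries lay below both controls, which differed by a ratio of 0.869. Sfrp2 stood at 46.4 FPKM in KO against 99.1 in WT (ratio of read shares 0.468, 0.445 to 0.491). It stood at 25.96 FPKM in shMef2c against 74.8 in shCtrl (0.346, 0.325 to 0.369). Here too both perturbed libraries lay below both controls, but the log2 ratio of KO was -1.08 over WT and -0.68 over shCtrl, where it no longer reached 2-fold.

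At day 0 the Sfrp1 levels did not separate perturbed and control lines. They were 22.6 RPKM in KO against 16.2 in WT, and 16.8 RPKM in the library labelled shMef2c against 23.3 in shCtrl. Sfrp2 stood at 7.02 RPKM in KO against 7.86 in WT, and at 9.02 RPKM in the library labelled shMef2c against 8.33 in shCtrl. The 2 genes differ in their course. From its level at day 0, Sfrp2 was higher by 2-fold or more at day 5 in all 4 lines, with centred log2 ratios of 2.55 in KO, 1.47 in shMef2c, 2.95 in shCtrl and 3.48 in WT. Sfrp1 was higher by that size in the control lines only (1.48 in shCtrl and 2.23 in WT), at 0.42 in KO and 0.040 in shMef2c.

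The other Sfrp genes were scarcer. Sfrp5, a gene of the anterior visceral endoderm and foregut, stood at 2.43 FPKM in KO against 2.95 in WT, and at 9.78 FPKM in shMef2c against 13.4 in shCtrl at day 5. Both hairpin lines were thus above KO and WT, and the ratio between the controls was 4.55 (3.79 to 5.49). Visceral endoderm markers (8 genes, among them Afp, Ttr, Apoa1 and Rbp4) were all detected in each day 5 library. They summed to 121.5 FPKM in KO, 25.9 in shMef2c, 65.3 in shCtrl and 14.03 in WT. The part of such cells in the Sfrp5 levels was not tested. At day 0 Sfrp5 lay between 1.19 RPKM in WT and 1.77 in KO, with 1.38 in the library labelled shMef2c and 1.73 in shCtrl. Sfrp4, known for effects on bone and phosphate balance, stood at 1.64 FPKM in KO against 0.90 in WT, and at 1.30 FPKM in shMef2c against 0.81 in shCtrl at day 5. It stood at 4.63 RPKM in KO against 2.40 in WT, and at 2.01 RPKM in the library labelled shMef2c against 2.74 in shCtrl at day 0. KO had the highest Sfrp4 level on both days, with read shares 1.83 times (1.23 to 2.75) and 1.93 times (1.48 to 2.53) those of WT. Summed over the 4 genes, Sfrp levels at day 5 were 81.4 FPKM in KO against 184 in WT, and 53.9 FPKM in shMef2c against 159 in shCtrl.

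Among the receptors, Fzd3 was much lower in both perturbed lines, and Fzd1, Fzd2 and Fzd7 were lower in shMef2c. Fzd3, which guides axons and acts with Fzd6 in closure of the mouse neural tube, stood at 3.44 FPKM in KO against 15.5 in WT and at 2.91 FPKM in shMef2c against 17.1 in shCtrl. Its ratio of read shares was 0.222 (0.208 to 0.236) in KO and 0.170 (0.159 to 0.182) in shMef2c, against 1.10 (1.06 to 1.14) between the controls. The perturbed libraries lay near each other and far from both controls. At day 0 Fzd3 was at 0.63 RPKM in KO against 1.08 in WT, and at 0.89 RPKM in the library labelled shMef2c against 0.83 in shCtrl.

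Fzd3 lies on chromosome 14, in a stretch that was lower as a whole in KO. Of the 40 measured genes nearest to it, 38 had ratios below 0 in KO against WT at day 5, with a median of -0.65, and 39 did at day 0, with a median of -0.74. In shMef2c against shCtrl at day 5 the same kind of neighbours had a median of -0.016, with 20 of 40 below 0. The log2 ratio of Fzd3 itself at day 5 was -1.90 in KO and -2.21 in shMef2c. It stayed past 2-fold in both when the median of its chromosome was subtracted. That median covers the whole chromosome and was -0.28 in KO and -0.075 in shMef2c. Subtracting it therefore takes out only part of the lower values of the stretch in KO. Wnt5a lies on the same chromosome with 454 protein-coding genes in between, and the 40 genes nearest to it had a median of 0.13 in KO at day 5. Chromosomes and gene order are from RefSeq (GRCm38.p6).

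Fzd7 and Fzd2 were the most abundant receptors at day 5. Fzd7, a main Frizzled receptor of stem cells, stood at 41.0 FPKM in KO against 35.1 in WT, and at 26.4 FPKM in shMef2c against 44.05 in shCtrl. Fzd2 stood at 27.3 FPKM in KO against 32.4 in WT, and at 23.9 FPKM in shMef2c against 41.8 in shCtrl. For both genes shMef2c was the lowest library at day 5, short of 2-fold. At day 0, Fzd7 stood at 6.96 RPKM in KO against 8.36 in WT, and at 7.49 RPKM in the library labelled shMef2c against 12.1 in shCtrl. Fzd1 stood at 4.03 FPKM in KO against 5.01 in WT, and at 2.74 FPKM in shMef2c against 6.54 in shCtrl, where its log2 ratio of -1.01 was just past 2-fold. Against WT, Fzd1 in shMef2c had a log2 ratio of -0.68. At day 0 Fzd1 was at 0.72 RPKM in KO against 0.74 in WT, and at 1.27 RPKM in the library labelled shMef2c against 0.77 in shCtrl.

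Fzd10 and Fzd9 showed differences of other kinds. Fzd10 stood at 9.93 FPKM in KO against 14.7 in WT, and at 18.8 FPKM in shMef2c against 7.65 in shCtrl at day 5. The log2 ratio of shMef2c was 1.20 over shCtrl but 0.34 over WT, and the controls themselves differed (ratio 0.523, 0.472 to 0.578). At day 0 Fzd10 stood at 12.03 RPKM in KO against 8.01 in WT, and at 15.5 RPKM in the library labelled shMef2c against 12.4 in shCtrl, so WT was the lowest library then. Fzd9, a Frizzled gene of the developing brain, stood at 2.62 FPKM in KO against 5.50 in WT, and at 2.49 FPKM in shMef2c against 5.55 in shCtrl. In both perturbed libraries the level was under 0.5 times that of the control, while log2 ratios of -0.84 and -0.91 with the pseudocount fell short of 2-fold. At day 0 Fzd9 varied only between 1.87 RPKM in shCtrl and 2.22 in WT, with 2.03 in KO and 2.04 in the library labelled shMef2c.

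At day 5 Fzd5 was near equal within each pair of cultures and higher in the hairpin pair. This receptor gene, needed for yolk sac vessels in the mouse, stood at 3.36 FPKM in KO against 3.5 in WT, and at 9.46 FPKM in shMef2c against 9.58 in shCtrl at day 5. At day 0 it was the most abundant receptor in all 4 libraries, at 23.2 RPKM in KO against 18.2 in WT and at 23.5 RPKM in the library labelled shMef2c against 20.9 in shCtrl. Both perturbed libraries lay above both controls then, with read-share ratios of 1.27 (1.21 to 1.34) and 1.12 (1.06 to 1.17). The controls differed as well, with a ratio of 1.15 (1.09 to 1.21) for shCtrl over WT. Fzd5 was lower at day 5 than at day 0 by 2-fold or more in every line. Its centred log2 ratios were -2.48 in KO, -1.19 in shMef2c, -1.12 in shCtrl and -2.12 in WT. Fzd8, a receptor gene of the anterior embryo, stood at 6.34 FPKM in KO against 4.44 in WT, and at 6.41 FPKM in shMef2c against 5.53 in shCtrl. At day 0 Fzd8 stood at 1.24 RPKM in KO against 1.49 in WT, and at 1.79 RPKM in the library labelled shMef2c against 1.43 in shCtrl. Fzd6, the planar polarity partner of Fzd3, stood at 2.78 FPKM in KO against 2.98 in WT, and at 4.86 FPKM in shMef2c against 3.73 in shCtrl. Unlike Fzd3, it was within 2-fold of its control in both lines. At day 0 Fzd6 stood at 1.90 RPKM in KO against 1.13 in WT, and at 1.73 RPKM in the library labelled shMef2c against 1.25 in shCtrl. Fzd4, also the receptor of Norrin, stood at 2.03 FPKM in KO against 1.43 in WT and at 1.76 FPKM in shMef2c against 2.40 in shCtrl at day 5, and at 0.61 to 0.97 RPKM over the libraries at day 0 (0.97 in KO, 0.75 in the library labelled shMef2c, 0.61 in shCtrl and 0.77 in WT).

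The Wnt ligand genes had low levels, and which of them led differed between the lines. Summed over all 19, they came to 22.4 FPKM in KO against 34.4 in WT, and to 44.4 FPKM in shMef2c against 34.3 in shCtrl at day 5. Wnt8a, a ligand of the posterior epiblast and primitive streak, stood at 2.59 FPKM in KO against 9.98 in WT, a ratio of read shares of 0.244 (0.201 to 0.295). It stood at 23.4 FPKM in shMef2c against 6.54 in shCtrl, a ratio of 3.53 (3.14 to 3.97). Wnt8a thus lay below both controls in KO and above both in shMef2c, where it made up 52.6% of the summed Wnt level. At day 0 it was at 0.13 RPKM in KO against 0.41 in WT, and at 0.96 RPKM in the library labelled shMef2c against 0.48 in shCtrl. Primitive streak markers (T, Mixl1, Eomes, Gsc, Tbx6 and Mesp1) differed in the same directions at day 5. They summed to 3.66 FPKM in KO, with Mesp1 at 0, against 50.5 in WT, and to 142.6 FPKM in shMef2c against 47.5 in shCtrl. The part of streak-like cells in the Wnt8a levels was not tested.

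**Figure D3:**
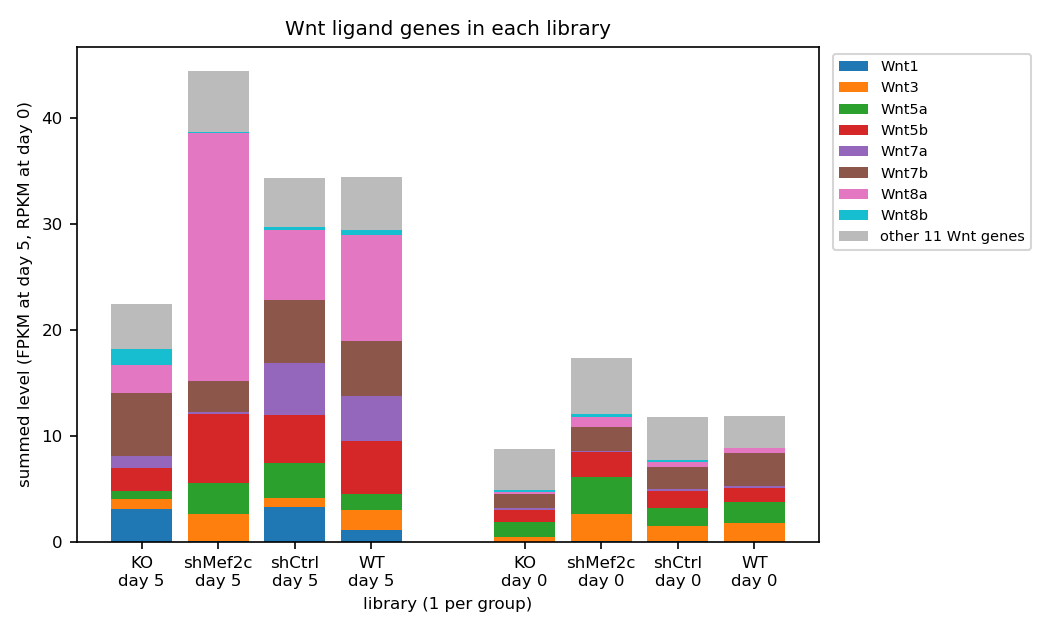
Summed level of the 19 Wnt genes in each library, in FPKM at day 5 (left) and RPKM at day 0 (right), stacked by gene from 0 with 11 genes joined as other. The Wnt8a segment is 23.4 FPKM in shMef2c at day 5 and 2.59 FPKM in KO, and the Wnt7a segment is 4.84 FPKM in shCtrl and 0.16 FPKM in shMef2c.

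Wnt7a and Wnt1, ligands of the developing brain, were near 0 in shMef2c at day 5. Wnt7a, which also guides blood vessels into the brain together with Wnt7b, stood at 1.10 FPKM in KO against 4.2 in WT (90 against 344 reads), and at 0.16 FPKM in shMef2c against 4.84 in shCtrl (13 against 385 reads). Its ratio of read shares was 0.265 (0.208 to 0.335) in KO and 0.033 (0.017 to 0.057) in shMef2c, against 1.16 (0.996 to 1.34) between the controls. At day 0 Wnt7a was at 0.17 RPKM in KO and in the library labelled shMef2c, 0.21 in shCtrl and 0.18 in WT, so shMef2c at day 5 was at its day 0 level. Wnt1, which marks the border of midbrain and hindbrain, stood at 3.13 FPKM in KO against 1.10 in WT, and at 0.05 FPKM in shMef2c against 3.28 in shCtrl. These levels rest on 190 reads in KO against 68 in WT and on 3 reads in shMef2c against 196 in shCtrl, where the ratio was 0.015 (0.003 to 0.044). shCtrl and WT differed in Wnt1 by a ratio of 2.97 (2.25 to 3.98), so KO was above WT but close to shCtrl. At day 0 Wnt1 had 0 reads in KO and WT, 1 read in the library labelled shMef2c (0.02 RPKM) and 2 in shCtrl (0.04 RPKM).

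Wnt7b differed from Wnt7a in these libraries. It stood at 6.00 FPKM in KO against 5.24 in WT, and at 2.90 FPKM in shMef2c against 6.00 in shCtrl. KO was thus level with the controls, and shMef2c had 0.481 times the read share of shCtrl (0.412 to 0.560). At day 0 Wnt7b stood at 1.38 RPKM in KO against 3.17 in WT, and at 2.18 RPKM in the library labelled shMef2c against 2.10 in shCtrl. Wnt8b, a ligand of the dorsal forebrain, stood at 1.53 FPKM in KO against 0.45 in WT (134 against 40 reads), and at 0.09 FPKM in shMef2c against 0.29 in shCtrl. At day 0 it was at 0.20 RPKM in KO against 0.06 in WT, and at 0.27 RPKM in the library labelled shMef2c against 0.11 in shCtrl. Its mean over each pair was under 1, so it took no part in the counts, although KO had the highest of the 4 levels at day 5.

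Wnt3, needed to start the mouse primitive streak, stood at 0.91 FPKM in KO against 1.88 in WT, and at 2.57 FPKM in shMef2c against 0.80 in shCtrl at day 5. It went the way of Wnt8a in both lines, short of 2-fold on the scale with the pseudocount (log2 ratios -0.59 and 0.99), but the controls differed as well (ratio 0.425, 0.312 to 0.574). At day 0 Wnt3 was at 0.44 RPKM in KO against 1.79 in WT (16 against 88 reads), and at 2.55 RPKM in the library labelled shMef2c against 1.47 in shCtrl. Wnt3a, a ligand of the tail bud, stood at 0.63 FPKM in KO against 1.21 in WT and at 0.69 FPKM in shMef2c against 0.34 in shCtrl at day 5. Its 4 libraries at day 0 held 0.50 RPKM in KO against 0.29 in WT, and 0.72 RPKM in the library labelled shMef2c against 0.42 in shCtrl. Wnt6 stood at 0.82 FPKM in KO against 0.54 in WT and at 1.21 FPKM in shMef2c against 0.25 in shCtrl at day 5. At day 0 Wnt6 stood at 0.76 RPKM in KO against 0.22 in WT, and at 0.98 RPKM in the library labelled shMef2c against 0.67 in shCtrl. Wnt6 was higher in the perturbed library of each pair on both days, on 10 to 64 reads. The interval of its read-share ratio included 1 for KO over WT at day 5 (0.916 to 2.49). It also did for the library labelled shMef2c over shCtrl at day 0 (0.908 to 2.47). The controls differed too, with ratios of shCtrl over WT of 0.463 (0.221 to 0.919) at day 5 and 2.92 (1.38 to 6.71) at day 0.

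Ligands that act mostly without beta-catenin gave a mixed picture. Wnt5a, a ligand of limb and axis outgrowth, stood at 0.70 FPKM in KO against 1.56 in WT, and at 2.91 FPKM in shMef2c against 3.36 in shCtrl at day 5. Wnt5b stood at 2.20 FPKM in KO against 4.97 in WT, and at 6.55 FPKM in shMef2c against 4.55 in shCtrl. KO was the lowest library for both genes at day 5, with read shares 0.452 (0.339 to 0.597) and 0.437 (0.353 to 0.539) times those of WT. For shCtrl over WT the ratios were 2.20 (1.82 to 2.66) in Wnt5a and 0.908 (0.766 to 1.08) in Wnt5b. The controls thus differed in Wnt5a as well, and both hairpin lines were above KO and WT. At day 0 Wnt5a stood at 1.37 RPKM in KO against 2.00 in WT, and at 3.49 RPKM in the library labelled shMef2c against 1.64 in shCtrl. Wnt5b stood at 1.16 RPKM in KO against 1.27 in WT, and at 2.37 RPKM in the library labelled shMef2c against 1.62 in shCtrl at day 0. The library labelled shMef2c was the highest for both then. Its feeder fibroblast markers (8 collagen, matrix and surface genes) summed to 376 RPKM, against 229 in shCtrl, with 207.5 in KO and 223 in WT, and none at 0; their part in the Wnt5a and Wnt5b levels was not tested. Wnt11, a ligand of cell movement in gastrulation, stood at 0.24 FPKM in KO against 0.79 in WT (17 against 59 reads), and at 1.25 FPKM in shMef2c against 0.67 in shCtrl. At day 0 Wnt11 stood at 0.81 RPKM in KO against 0.48 in WT, and at 0.55 RPKM in the library labelled shMef2c against 0.85 in shCtrl.

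Wnt4 and Wnt9a stayed near the minimum level. Wnt4, a ligand of kidney and gonad, stood at 1.21 FPKM in KO against 1.04 in WT and at 1.25 FPKM in shMef2c against 0.76 in shCtrl at day 5. At day 0 Wnt4 stood at 0.59 RPKM in KO against 0.92 in WT, and at 0.81 RPKM in the library labelled shMef2c against 0.78 in shCtrl. Wnt9a stood at 0.76 FPKM in KO against 0.86 in WT and at 0.62 FPKM in shMef2c against 1.53 in shCtrl at day 5, and at day 0 at 0.47 RPKM in KO against 0.73 in WT and at 1.16 RPKM in the library labelled shMef2c against 0.81 in shCtrl. Neither reached 2-fold on the scale with the pseudocount in a comparison of a perturbed line with its control.

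Of the 4 Dkk genes, only 2 passed the minimum level at day 5 and 1 at day 0 in either perturbed line against its control. None of these reached 2-fold there on the scale with the pseudocount. This stands beside 7.31% of all features in KO and 9.26% in shMef2c at day 5. At day 0 the shares were 2.93% in KO and 0.231% in the library labelled shMef2c. Dkk1, the Lrp6 inhibitor needed for head formation in the mouse, stood at 8.94 FPKM in KO against 11.02 in WT, and at 23.2 FPKM in shMef2c against 21.8 in shCtrl at day 5. At day 0 it was at 0.55 RPKM in KO against 0.46 in WT, and at 0.60 RPKM in the library labelled shMef2c against 0.34 in shCtrl. Its centred log2 ratio of day 5 over day 0 was 2.67 in KO, 3.96 in shMef2c, 4.02 in shCtrl and 3.02 in WT, so the gene was higher at day 5 in perturbed and control lines alike. As with Fzd5, Sfrp5 and Wnt5a, both hairpin lines were above both other lines at day 5. The ratio of Dkk1 between the controls was 1.98 (1.80 to 2.19). Dkk3, a divergent member that does not act on Lrp6, stood at 2.18 FPKM in KO against 2.01 in WT, and at 1.54 FPKM in shMef2c against 2.26 in shCtrl. At day 0 Dkk3 stood at 3.23 RPKM in KO against 3.96 in WT, and at 3.51 RPKM in the library labelled shMef2c against 2.71 in shCtrl. Dkk2 stood at 0.08 FPKM in KO against 0.18 in WT and at 0.19 FPKM in shMef2c against 0.16 in shCtrl at day 5. It was higher at day 0, at 0.53 RPKM in KO against 0.72 in WT, and at 1.26 RPKM in the library labelled shMef2c against 0.59 in shCtrl, where the read-share ratio was 2.12 (1.47 to 3.07) but the mean was under the minimum level. The library labelled shMef2c also had the highest feeder fibroblast markers at day 0, and their part in the Dkk2 levels was not tested.

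The sequence before the gene start is shown for 5 of the genes on which the results turn, to let their promoters be compared: Sfrp2 and Wnt7a, lower in both perturbed lines; Wnt1, near 0 in shMef2c; Fzd10, higher there; and Dkk1, higher at day 5 in every line and near equal within each pair. RefSeq promoter windows (GRCm38.p6) were found for 25 of the 37 genes, with 28 windows in all. None was found for Sfrp1, Fzd3 or Wnt8a, so what follows on motifs does not cover them. Each run holds the 250 bases before the start, 5′ to 3′ on the gene's strand, from chr3:83766071-83766320 (plus) for Sfrp2, chr6:91411354-91411603 (minus) for Wnt7a, chr15:98789607-98789856 (plus) for Wnt1, chr5:128600856-128601105 (plus) for Fzd10 and chr19:30549497-30549746 (minus) for Dkk1. Capitals mark matches on either strand to TCAAAG, a core that TCF/LEF factors of the Wnt pathway bind, to ATGCAAAT, the octamer of POU factors, or to TATAAA.
Sfrp2: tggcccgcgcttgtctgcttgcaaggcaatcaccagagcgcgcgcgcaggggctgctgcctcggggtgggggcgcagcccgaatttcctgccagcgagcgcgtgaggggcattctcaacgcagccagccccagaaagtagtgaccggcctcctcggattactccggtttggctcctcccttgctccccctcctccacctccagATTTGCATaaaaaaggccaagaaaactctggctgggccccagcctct
Wnt7a: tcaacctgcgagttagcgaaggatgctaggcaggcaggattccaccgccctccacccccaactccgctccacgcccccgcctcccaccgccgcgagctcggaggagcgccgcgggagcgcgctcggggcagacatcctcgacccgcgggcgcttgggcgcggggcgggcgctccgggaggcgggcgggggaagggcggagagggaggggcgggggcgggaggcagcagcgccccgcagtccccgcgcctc
Wnt1: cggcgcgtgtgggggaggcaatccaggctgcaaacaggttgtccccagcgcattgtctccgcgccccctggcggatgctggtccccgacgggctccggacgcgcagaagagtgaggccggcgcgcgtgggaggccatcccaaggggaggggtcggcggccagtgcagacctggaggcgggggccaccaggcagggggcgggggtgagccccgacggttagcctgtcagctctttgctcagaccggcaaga
Fzd10: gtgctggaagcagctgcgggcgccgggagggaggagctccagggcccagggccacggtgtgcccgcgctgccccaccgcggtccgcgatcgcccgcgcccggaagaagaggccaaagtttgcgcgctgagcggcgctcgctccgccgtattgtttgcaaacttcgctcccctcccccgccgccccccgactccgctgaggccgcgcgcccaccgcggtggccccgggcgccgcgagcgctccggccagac
Dkk1: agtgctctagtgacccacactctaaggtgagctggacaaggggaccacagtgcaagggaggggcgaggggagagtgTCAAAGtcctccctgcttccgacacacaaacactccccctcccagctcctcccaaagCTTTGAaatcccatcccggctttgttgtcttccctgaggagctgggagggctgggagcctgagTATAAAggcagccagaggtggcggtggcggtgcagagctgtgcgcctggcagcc

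In these windows Dkk1 holds TCAAAG 174 and 117 bases before the start and TATAAA 54 bases before it, and Sfrp2 holds the octamer 47 bases before it. Wnt7a, Wnt1 and Fzd10 hold none of the 3 motifs, and have 34, 23 and 37 CpG dinucleotides against 16 in Sfrp2 and 6 in Dkk1. Over the 28 windows, 4 hold TCAAAG (14.3%, beside 13.8% of 32851 windows of all genes), 1 holds the octamer (3.57%, beside 1.60%) and 4 hold TATAAA (14.3%, beside 12.4%). No window of a member holds the MEF2 motif, which 2.92% of all windows hold. The median number of CpG dinucleotides was 22 over the members' windows and 6 over all windows. These matches describe letters in a short window and say nothing of binding.

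Stem cells at day 0 showed few such differences. In KO, 16 of the 37 genes passed the minimum level, 0 were higher and 1 was lower, Fzd2, beside 2.93% of all 12002 features in either direction, 1.35% higher and 1.58% lower. Fzd2 stood at 1.52 RPKM in KO against 4.99 in WT (ratio of read shares 0.305, 0.245 to 0.377), and at 3.04 RPKM in the library labelled shMef2c against 2.53 in shCtrl. WT was the highest library. Fzd2 lies on chromosome 11, as do Wnt3, Wnt3a, Wnt9a and Wnt9b, and that chromosome as a whole stood higher in WT at day 0. The median log2 ratio of its 995 measured genes was -0.38 in KO against WT, and that of 992 in shCtrl against WT was -0.44. When the median of each gene's own chromosome was subtracted, no member reached 2-fold. In the library labelled shMef2c against shCtrl, 17 genes passed and none reached 2-fold, beside 0.231% of all 12103 features in either direction, 0.132% higher and 0.0991% lower. In shCtrl against WT, 16 passed and none did, beside 1.27% of all 11921 features, 0.755% higher and 0.512% lower. The median log2 ratio of the members that passed was -0.12 in KO, 0.19 in the library labelled shMef2c and 0.077 between the controls, beside 0.028, 0.035 and 0.0065 over all features.

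Of the members past 2-fold between the days, most were higher at day 5 than at day 0, while all features were split about evenly. For this, the median over all shared features was set to 0, and since the tables were made separately the ratios are a description. In KO, 10 members were higher and 2 lower of 21 that passed, beside 19.9% of all 12015 features in either direction, 10.1% higher and 9.79% lower. In shMef2c, 10 were higher and 1 lower of 23, beside 18.9% of all 12129, 9.37% higher and 9.5% lower. In shCtrl, 16 were higher and 2 lower of 24, beside 30.6% of all 12182, 15.3% higher and 15.3% lower. In WT, 11 were higher and 1 lower of 22, beside 30.0% of all 11989, 15.3% higher and 14.7% lower. Feeder fibroblast markers were at 16.9 to 22.8 FPKM in sum at day 5 against 207.5 to 376 RPKM at day 0, so feeder RNA differed between the days as well, and its part in these ratios was not tested.

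**Figure D4:**
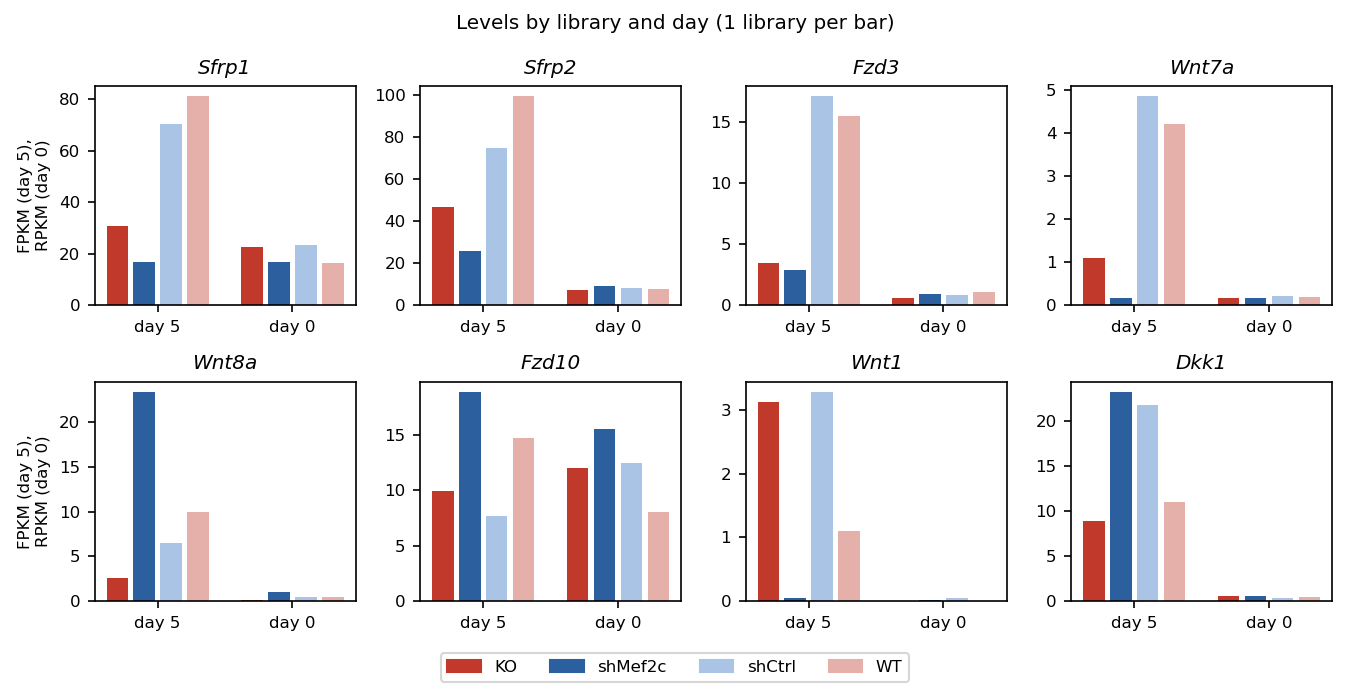
Levels of 8 members in each library, FPKM at day 5 on the left of each panel and RPKM at day 0 on the right, 1 bar per library and axes from 0. Sfrp1 at day 5 is 16.9 FPKM in shMef2c, as against 16.8 RPKM in the library labelled shMef2c at day 0, while in shCtrl it is 70.4 FPKM as against 23.3 RPKM.

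Fzd2, Fzd7, Fzd8, Fzd3, Sfrp2, Wnt8a and Dkk1 were higher at day 5 by 2-fold or more in all 4 lines. Fzd2 had centred log2 ratios of 3.48 in KO, 2.66 in shMef2c, 3.53 in shCtrl and 2.46 in WT. Fzd3 had 1.43 in KO and 1.09 in shMef2c, against 3.23 in shCtrl and 2.97 in WT, so it too was higher at day 5 in the perturbed lines, by less than in the controls. Wnt7a passed the minimum level in the controls alone, with 2.20 in shCtrl and 2.12 in WT. Sfrp4 was lower at day 5 by 2-fold or more in KO (-1.11) and shCtrl (-1.12), and stood at -0.35 in shMef2c and -0.86 in WT.

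Other genes of the pathway were examined as lists, and at day 5 in shMef2c 4 target genes were higher while in KO none were. Of 11 feedback and target genes, 11 passed in shMef2c, of which 4 were higher and 0 lower, beside 4.49% and 4.78% of all features. Primitive streak and mesoderm markers, a list that also holds T, were higher in shMef2c and lower in KO (142.6 FPKM in shMef2c against 47.5 in shCtrl, and 3.66 FPKM in KO against 50.5 in WT), and their part in these values was not tested. Lef1, a DNA-binding partner of beta-catenin, stood at 11.4 FPKM in shMef2c against 4.03 in shCtrl, the posterior gene Cdx1 at 5.70 against 0.28, and the mesoderm gene T at 105.9 against 36.6. Sp5, a target repressor of the pathway, stood at 2.90 FPKM in KO against 6.37 in WT and at 23.2 FPKM in shMef2c against 7.71 in shCtrl. In KO 10 passed, with 0 higher and 1 lower (beside 4.05% and 3.26% of all features), T at 0.35 FPKM against 40.5 in WT. At day 0 in KO, 8 passed, with Cdx1 higher (17.2 RPKM against 5.22 in WT) and T lower (1.19 RPKM against 6.25 in WT). Of all features in that comparison, 1.35% were higher and 1.58% lower. Between the controls at day 0, shCtrl against WT, 8 passed too, with 1 higher and 0 lower (beside 0.755% and 0.512%). Axin2, the feedback gene most used as a readout of the pathway, stood at 6.76 FPKM in KO against 7.82 in WT and at 9.02 FPKM in shMef2c against 6.53 in shCtrl, within 2-fold in both. The median log2 ratio of this list was -0.50 in KO and 0.49 in shMef2c.

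The R-spondins strengthen Wnt signals by sparing Frizzled from the ligases Rnf43 and Znrf3. Each list below stands beside the shares of all features past 2-fold at day 5. These were 7.31% in KO (4.05% higher, 3.26% lower) and 9.26% in shMef2c (4.49% higher, 4.78% lower). Of 9 genes of the R-spondin axis, 5 passed in each line, and Rspo3 alone reached 2-fold. It stood at 1.15 FPKM in KO against 3.72 in WT and at 10.25 FPKM in shMef2c against 2.94 in shCtrl. Its directions match those of Wnt8a in both lines. Of 16 other inhibitors, 10 passed in KO (1 higher, 3 lower) and 12 in shMef2c (3 higher, 4 lower), to be read against the same shares of all features. Notum, an enzyme that removes the lipid from Wnts, was higher in both, at 9 FPKM in KO against 3.43 in WT and at 9.41 FPKM in shMef2c against 1.89 in shCtrl. Shisa3 was lower in both, at 0.88 FPKM in KO against 3.67 in WT and at 0.57 FPKM in shMef2c against 3.52 in shCtrl. Cer1 was at 0.14 FPKM in KO against 12.6 in WT and at 30.3 FPKM in shMef2c against 13.3 in shCtrl, again in the directions of Wnt8a. Shisa2 was lower in KO, at 2.81 FPKM against 8.05 in WT. In shMef2c Sost was higher, at 2.45 FPKM against 0.12 in shCtrl, and 3 more inhibitors were lower than in shCtrl: Draxin at 0.61 FPKM against 2.90, Apcdd1 at 2.73 FPKM against 6.86 and Igfbp4 at 25.9 FPKM against 54.4. Of 9 secretion and co-receptor genes, all 9 passed, with none past 2-fold in KO and 1 in shMef2c, Porcn, which attaches the lipid to Wnts, at 18.5 FPKM against 8.31 in shCtrl. Of 18 genes of the intracellular core, which includes Ctnnb1, Apc and the Dvl genes, all 18 passed, with none past 2-fold in KO and 1 in shMef2c, Pygo1, at 0.79 FPKM against 3.45 in shCtrl. The medians of the 3 lists of R-spondin, inhibitor and core genes were 0.075, -0.67 and -0.14 in KO and -0.035, -0.44 and -0.24 in shMef2c, and that of the secretion and co-receptor list was -0.28 in KO and 0.29 in shMef2c, beside the medians over all features given above (0.0011 and -0.048).

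The authors' deposited table for KO over WT at day 5 lists 12 of the members, 2 of them higher (Wnt8b and Wnt1) and 10 lower, beside 10.7% of the 21069 features at day 5 in either direction, 5.46% higher and 5.23% lower. The authors' deposited table for shMef2c over shCtrl lists 13, 4 of them higher (Wnt6, Wnt8a, Wnt3 and Fzd10) and 9 lower, beside 13.1% of the features in either direction, 5.83% higher and 7.26% lower. Those ratios have no pseudocount, which admits scarce genes that the counts above leave out.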

How the data were processed

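Polyadenylated RNA of 8 cultures was sequenced, 1 library per group. The lines and day 0 were taken from the labels. Day 5 is not in the sample titles and was taken from the description of the series design. The authors deposited estimated counts (expected counts) and FPKM per gene for each day 5 library, with genes under 0.01 FPKM not listed and taken as 0, and estimated counts and RPKM for day 0, per the file headers. The authors also deposited log2 ratios and adjusted p-values for both day 5 pairs, from a Poisson-distribution method per the labels. The submitters' processing notes list, with no role, the build mm9 and the tools RSEM, HISAT2, HISAT, Bowtie2 and Bowtie. The sources used here do not give whether counting used strand; overlapping antisense genes cannot be told apart.

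Members and lists were chosen with earlier results of these data known, and the motifs after the sequences were seen. Every member that reached 1 FPKM or RPKM in a library is described in each library; list genes are named where they reached 2-fold against the control, and Axin2 and Sp5 in both lines were chosen after their values were seen. Ratios used a pseudocount of 1 and a minimum mean of 1 over the pair, computed with pandas 2.3.3. Exact (Clopper-Pearson) intervals used rounded estimated counts and scipy 1.17.1. Alternatives were a pseudocount of 0.1, no minimum or a mean of 5, TPM, estimated counts rounded to whole numbers scaled by DESeq2 1.42.0 (size factors) or edgeR 4.0.16 (TMM), a 1.5-fold threshold, the other control library, no centring and, added after seeing the data, subtraction of the chromosome median. No column of another series was used.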

Additional observations from a re-analysis of the deposited data

Results flagged for a closer look

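For 2 genes that passed the minimum level on both days and reached 2-fold on one of them, perturbed and control libraries differed in opposite directions on the 2 days, with counting intervals that leave out 1 on both days. Smaller opposite differences, under 2-fold on both days, also occurred (for KO over WT, Fzd10 and Fzd7 among others). The difference between the days was not tested, since each value rests on 1 library per group. Sfrp1 had a log2 ratio of KO over WT of -1.37 at day 5 and 0.46 at day 0, and over shCtrl of -1.16 at day 5 and -0.039 at day 0, so the direction at day 0 depends on the control library. Fzd1 had a log2 ratio of shMef2c over shCtrl of -1.01 at day 5 and, with the library labelled shMef2c, 0.36 at day 0, where that library also had the highest feeder fibroblast markers, whose part was not tested.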

How the results depend on the processing

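Of 84 counts of members past the fold under alternatives, 63 stayed within 1.5 times the count given, and none of the ratios of single members counted at 2-fold changed sign. A ratio was counted as moved where it lay outside its counting interval. It also had to differ from the ratio given by more than a set share of that interval's width. Of 410 recomputed ratios of single members in the perturbed lines, 51 moved in this sense, 44 of them with the other control library. Among these were ratios of shMef2c at day 5 that were not counted over shCtrl and passed 2-fold with the opposite sign over WT, Sfrp5 at -0.41 over shCtrl and 1.45 over WT and Fzd5 at -0.016 and 1.22. In KO against WT at day 5 the count of 5 became 9 with a pseudocount of 0.1, 10 at 1.5-fold and 8 over shCtrl (beside 11.4%, 20.0% and 10.2% of all features), the last with 4 of the 5 and without Sfrp2. In shMef2c against shCtrl at day 5 the count of 8 became 5 with a mean of 5 or more, without Wnt1, Wnt7a and Fzd1, and 14 at 1.5-fold (beside 6.89% and 24.4%), and over WT it was 8 again, 5 of them shared. The mean of 5 also left out Wnt7a in KO, so 3 genes remained lower in both lines. Subtracting the chromosome median left out Fzd1 and added Wnt3 in shMef2c at day 5, so the count there stayed at 8 (beside 9.06%). In KO against WT at day 0 the count of 1 became 3 with a pseudocount of 0.1 and with TMM or DESeq2 factors (beside 5.45%, 4.17% and 4.16% of all features), 2 with TPM (4.38%), 4 at 1.5-fold (13.0%), and 0 with a mean of 5 or more (2.42%), over shCtrl (1.8%) or with the chromosome median subtracted (2.54%). In the library labelled shMef2c against shCtrl at day 0 the count of 0 became 1 with a pseudocount of 0.1 (Wnt5a) and 2 at 1.5-fold (beside 0.768% and 2.63%). Between the controls at day 5 the count of 3 became 5 with a pseudocount of 0.1 and 7 at 1.5-fold (beside 2.57% and 5.26%), and at day 0 the count of 0 became 1 at 1.5-fold (6.85%). For day 5 over day 0, a mean of 5 or more gave 4 members in place of 12 in KO, 7 in place of 11 in shMef2c and 8 in place of 18 in shCtrl (beside 16.8%, 16.3% and 27.9%). No paired analysis was possible because a perturbed line and its control have 1 library each on a day and share no replicate number; a fit of the day over the 4 lines was not made. Genes with few reads, such as Wnt1 in shMef2c, have wide counting intervals.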
